A study of Mus musculus with 2 samples.

Results

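The 9 genes described here form the switch that lets a resting cell start its division cycle: the D-type cyclins Ccnd1, Ccnd2 and Ccnd3, the kinases Cdk4 and Cdk6 that they activate, the kinase inhibitors Cdkn1b (p27), Cdkn2a (p16 and p19ARF) and Cdkn2c (p18), and Men1, which encodes menin. They were chosen by name for this known pathway, and all 9 were found among the 32285 genes counted in both libraries. Levels were read by leading hormone, in cells with and without the division markers Mki67 or Top2a, and between the libraries.

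A D-type cyclin bound to CDK4 or CDK6 phosphorylates the retinoblastoma protein, which releases E2F factors and opens the way to DNA synthesis. The INK4 inhibitors p16 and p18 bind the kinases themselves, whereas p27 binds cyclin and kinase together. In mouse islets, cyclin D2 and CDK4 are known to be needed for the growth of the beta-cell mass after birth. Menin, a partner of histone methyltransferases, is known there to keep the genes for p27 and p18 active.

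Islet cells were profiled by droplet-based 3′ single-cell RNA sequencing in 2 libraries. The first came from female mice whose beta cells lack Spop by targeted deletion (labelled SpopβKO), and the second from females carrying only the floxed alleles (labelled Spop fl/fl, control). All mice were 12 weeks old and on a C57BL/6 background, and all islets were picked by hand, kept for 3 days in medium with 10 mM glucose, dispersed with trypsin and cleared of dead cells. The labels do not give the Cre driver, the deleted exons or the number of mice pooled, and beta cells are the only cells in which the deletion is stated. SPOP selects proteins for ubiquitination by a CUL3 ligase.

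The library labelled SpopβKO held 89977773 UMIs in 10033 barcodes and the Spop fl/fl library 82541585 UMIs in 7768 barcodes, of which 8842 and 6850 cells were kept (at least 500 genes and at most 15% mitochondrial UMIs). The libraries shared 21 barcodes. A cell was called insulin-, glucagon-, somatostatin- or pancreatic polypeptide-led where that hormone held at least 1% of its UMIs and at least 2 times the UMIs of every other hormone. Insulin-led cells numbered 7002 in the library labelled SpopβKO and 3871 in the Spop fl/fl library, glucagon-led cells 1022 and 1744, and pancreatic polypeptide-led cells 106 and 115. Only 8 and 7 cells were somatostatin-led, so that class was left out of comparisons. The summed level of 8 beta-cell markers in insulin-led cells was 22858 CPM (UMIs scaled to a common total) in the library labelled SpopβKO and 14122 CPM in the Spop fl/fl library, and no marker was at 0. Glucagon-led cells carried a median of 1.00% insulin UMIs in the library labelled SpopβKO and 0.285% in the Spop fl/fl library, so insulin RNA was present outside insulin-led cells. Spop itself stood at 79.6 CPM in insulin-led cells labelled SpopβKO and at 63.4 CPM in Spop fl/fl ones, a log2 ratio of 0.33 (95% interval 0.26 to 0.39). A 3′ tag outside the deleted part would not read a deletion, so Spop counts do not check the genotype, and directions rest on the labels. There was 1 library per genotype. Every interval is therefore a 95% interval for counting error only, differences are between these 2 libraries, where genotype and library cannot be told apart.

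Ccnd2 supplied most D-cyclin UMIs of the islet cells. Because each transcript is counted once near its 3′ end, UMIs of different genes were set side by side without correction for length. Differences between genes in how well transcripts are captured were not tested, so the shares are of UMIs. In insulin-led cells Ccnd2 made up 92.1% (Clopper-Pearson interval 91.9 to 92.3) of the 57971 D-cyclin UMIs of the library labelled SpopβKO and 92.5% (92.2 to 92.7) of the 45695 of the Spop fl/fl library. Ccnd1 made up 5.47% and 5.58%, and Ccnd3 made up 2.44% and 1.95%. The same order, Ccnd2 over Ccnd1 over Ccnd3, was seen in glucagon-led cells, where Ccnd2 held 90.6% of the D-cyclin UMIs in the library labelled SpopβKO and 89.5% in the Spop fl/fl library. In pancreatic polypeptide-led cells Ccnd2 held 87.5% and 87.2%.

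The small classes recognised by markers of other lineages had other mixtures. Ccnd2 held 63.5% (55.2 to 71.3) of the D-cyclin UMIs of endothelial-marker cells labelled SpopβKO and 74.7% (69.8 to 79.2) of those of Spop fl/fl ones, where Ccnd1 held 24.3% and 15.9%. Mesenchymal-marker cells were almost without Ccnd1, with 5 UMIs in the 35 cells labelled SpopβKO and 1 UMI in the 7 Spop fl/fl cells, while Ccnd3 held 12.0% and 18.0% of their D-cyclin UMIs. In macrophage-marker cells Ccnd3 was the rarest, with 3 UMIs in the 60 cells labelled SpopβKO and 1 in the 16 Spop fl/fl cells, and Ccnd2 held 80.9% (74.7 to 86.2) and 52.8% (38.6 to 66.7). The summed level of the 8 beta-cell markers also differed in these classes. It was 7056 CPM in macrophage-marker cells labelled SpopβKO and 530 CPM in Spop fl/fl ones, 822 and 3307 CPM in endothelial-marker cells, and 1195 and 238 CPM in mesenchymal-marker cells. Ccnd2 held more of the D-cyclin UMIs in whichever library had more beta-cell marker RNA, and the part of that RNA was not tested.

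Ccnd1, the cyclin that most directly answers growth-factor signals, was higher in glucagon-led than in insulin-led cells of both libraries. In the library labelled SpopβKO it stood at 80.8 CPM (interval 74.7 to 87.3) in glucagon-led and 45.3 CPM (43.7 to 46.9) in insulin-led cells, a 1.78-fold ratio. In the Spop fl/fl library it stood at 98.1 CPM (93.5 to 103) and 56.0 CPM (53.8 to 58.2), a 1.75-fold ratio. Pancreatic polypeptide-led cells lay between them, at 74.4 CPM in the library labelled SpopβKO and 80.7 CPM in the Spop fl/fl library. These between-class levels are unscaled. With hormone genes left out of the totals, a denominator chosen after seeing the data, the glucagon-led over insulin-led ratio of Ccnd1 was 1.64-fold in the library labelled SpopβKO and 1.68-fold in the Spop fl/fl library. After thinning every cell to 5000 UMIs, a Ccnd1 UMI was seen in 32.2% of glucagon-led and 17.5% of insulin-led cells labelled SpopβKO (38.0% and 25.1% unthinned), and in 35.4% and 20.6% of those of the Spop fl/fl library (48.5% and 33.5% unthinned).

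Ccnd2 differed less between the hormone classes. It stood at 991 CPM in glucagon-led and 762 CPM in insulin-led cells labelled SpopβKO, a 1.30-fold ratio, and at 1027 and 928 CPM in those of the Spop fl/fl library, a 1.11-fold ratio (1.20-fold and 1.06-fold without hormone genes). Ccnd3, the remaining D cyclin, best known from blood cells, differed by 1.11-fold and 1.15-fold between these classes, at 22.4 and 20.2 CPM in the library labelled SpopβKO and 22.6 and 19.6 CPM in the Spop fl/fl library. The interval of its log2 ratio was −0.09 to 0.37 in the library labelled SpopβKO, so no difference was detectable there, and 0.03 to 0.38 in the Spop fl/fl library, but −0.03 to 0.31 there without hormone genes.

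**Figure D1:**
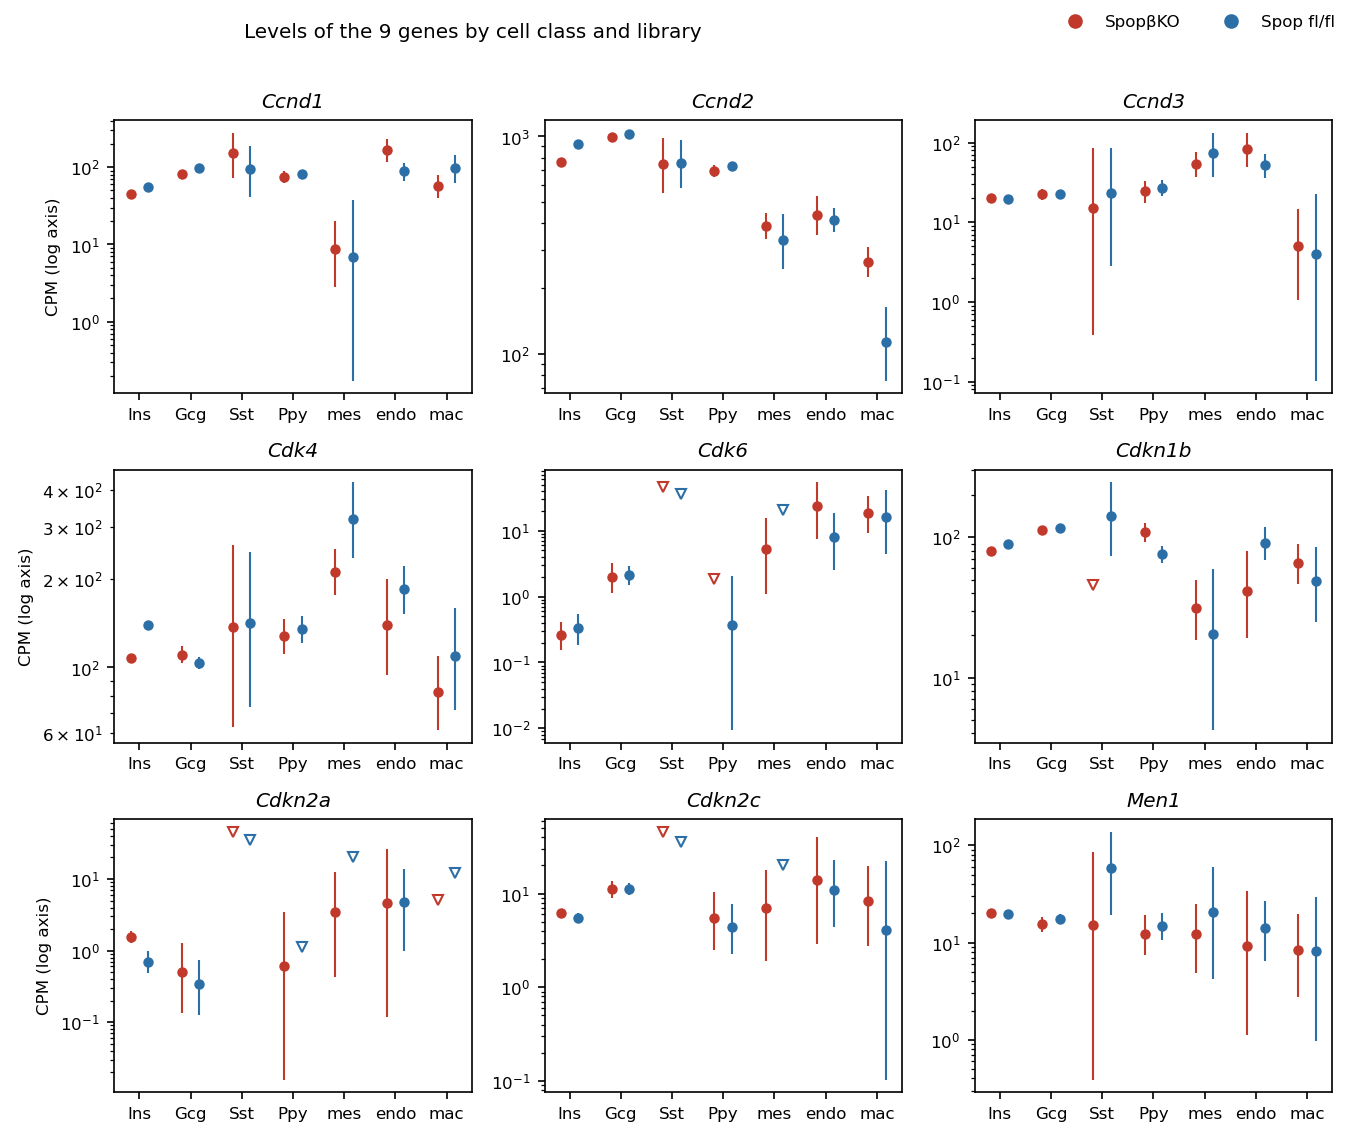
Levels of the 9 genes in CPM of summed UMIs (log axes) in insulin- (Ins), glucagon- (Gcg), somatostatin- (Sst) and pancreatic polypeptide-led (Ppy) cells and in cells with mesenchymal (mes), endothelial (endo) or macrophage (mac) markers, with the library labelled SpopβKO in red and left and Spop fl/fl in blue and right. Bars are 95% Poisson intervals, open triangles mark the level of 3 counts where none was seen, and the Sst points rest on 8 and 7 cells. Ccnd2 is the highest D cyclin in every class, and Cdk6 is near 20 CPM in macrophage-marker cells and under 1 CPM in insulin-led cells.

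The kinase partners split in the same cells. Cdk4 was well counted in every class, and Cdk6 was close to absent from insulin-led cells. There Cdk6 gave 18 UMIs in 7002 cells labelled SpopβKO and 15 UMIs in 3871 Spop fl/fl cells, or 0.26 CPM (0.15 to 0.41) and 0.33 CPM (0.18 to 0.54). Glucagon-led cells, with 16 and 37 UMIs, stood at 1.99 CPM (1.14 to 3.23) and 2.09 CPM (1.47 to 2.88), a 7.74-fold ratio over insulin-led cells in the library labelled SpopβKO and a 6.34-fold ratio in the Spop fl/fl library. Macrophage-marker cells stood higher, at 18.6 CPM (9.27 to 33.2) in the library labelled SpopβKO and 16.2 CPM (4.41 to 41.4) in the Spop fl/fl library. Endothelial-marker cells gave 5 Cdk6 UMIs in each library. After thinning, 0.0898% of insulin-led cells labelled SpopβKO and 0.254% of Spop fl/fl ones had a Cdk6 UMI.

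Cdk4 was highest in pancreatic polypeptide-led cells of the library labelled SpopβKO and in insulin-led cells of the Spop fl/fl library, where the intervals of these classes overlapped. It stood at 110 CPM (103 to 118) in glucagon-led and 108 CPM (105 to 110) in insulin-led cells labelled SpopβKO, a log2 ratio of 0.03 (−0.07 to 0.14). In the Spop fl/fl library it stood at 104 CPM (99.0 to 108) in glucagon-led and 139 CPM (135 to 142) in insulin-led cells, a log2 ratio of −0.42 (−0.50 to −0.35). Pancreatic polypeptide-led cells stood at 128 CPM (111 to 147) in the library labelled SpopβKO and 135 CPM (121 to 149) in the Spop fl/fl library. With hormone genes left out of the totals, Cdk4 was at 162 CPM in both pancreatic polypeptide-led and insulin-led Spop fl/fl cells. The promoter of Cdk4 is shown because it is dense in the E-box CACGTG, the element that MYC and related factors read. Binding of any factor to it, and any link between the levels of Myc and Cdk4, was not tested. The sequence is the RefSeq window of 300 bases (250 before and 50 after the start) on build GRCm38.p6, at chr10:127063285-127063584 on the plus strand, with the E-boxes in capitals.
Cdk4 promoter: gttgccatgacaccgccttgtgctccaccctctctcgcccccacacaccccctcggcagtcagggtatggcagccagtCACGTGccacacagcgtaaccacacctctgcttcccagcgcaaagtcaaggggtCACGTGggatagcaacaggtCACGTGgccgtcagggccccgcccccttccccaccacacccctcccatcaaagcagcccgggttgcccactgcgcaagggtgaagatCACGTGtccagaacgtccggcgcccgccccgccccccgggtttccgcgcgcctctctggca
This window held 4 copies of CACGTG, a palindrome that reads the same on both strands. At least 1 copy was in 7.15% of the 32851 RefSeq promoters of this length, and at least 4 copies were in 8 of them (0.0244%). Of the other genes with a promoter in the table, Cdk6 held 1 copy, Cdkn2c held 1 copy in 1 of its promoters, and Ccnd3, Cdkn1b, Cdkn2a and Men1 held none.

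Among the inhibitors, p27 and p18 were higher in glucagon-led than in insulin-led cells, and Cdkn2a was lower. Cdkn1b stood at 112 CPM in glucagon-led and 79.8 CPM in insulin-led cells labelled SpopβKO, a 1.41-fold ratio, and at 117 and 89.7 CPM in those of the Spop fl/fl library, a 1.30-fold ratio. Cdkn2c, which was low, stood at 11.2 CPM and 6.22 CPM (5.65 to 6.84) in the library labelled SpopβKO and at 11.2 CPM and 5.53 CPM (4.87 to 6.26) in the Spop fl/fl library, ratios of 1.80-fold and 2.03-fold. Cdkn2a gave 4 UMIs in glucagon-led against 108 in insulin-led cells labelled SpopβKO, a log2 ratio of −1.63 (−3.53 to −0.23), and 6 against 32 UMIs in the Spop fl/fl library, a log2 ratio of −1.05 (−2.60 to 0.23). In the Spop fl/fl library that interval included 0. No Cdkn2a UMI was seen in macrophage-marker cells of either library, which allows up to 5.06 CPM in cells labelled SpopβKO and 12.1 CPM in Spop fl/fl cells (the level of 3 counts).

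The Cdkn2a gene (ENSMUSG00000044303, chromosome 4, 89274471 to 89294653, minus strand, GENCODE release M21 on GRCm38) makes p16 and p19ARF from separate promoters, shown here because its transcripts share their 3′ part. The annotated transcripts start at 89294653 and 89282192 and end at 89274541 and 89274471, so the 3′ counts join both products and cannot tell them apart. The RefSeq windows (GRCm38.p6, minus strand) lie at chr4:89294570-89294869, upstream, and at chr4:89282143-89282442. They are printed in lower case because neither held the E-box searched above.
Cdkn2a upstream promoter: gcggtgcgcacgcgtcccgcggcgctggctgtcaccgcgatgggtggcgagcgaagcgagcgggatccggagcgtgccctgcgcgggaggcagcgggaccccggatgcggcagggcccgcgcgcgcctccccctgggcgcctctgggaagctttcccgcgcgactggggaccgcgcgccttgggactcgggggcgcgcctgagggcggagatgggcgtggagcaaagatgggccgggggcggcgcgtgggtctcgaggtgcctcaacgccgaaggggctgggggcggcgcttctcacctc
Cdkn2a downstream promoter: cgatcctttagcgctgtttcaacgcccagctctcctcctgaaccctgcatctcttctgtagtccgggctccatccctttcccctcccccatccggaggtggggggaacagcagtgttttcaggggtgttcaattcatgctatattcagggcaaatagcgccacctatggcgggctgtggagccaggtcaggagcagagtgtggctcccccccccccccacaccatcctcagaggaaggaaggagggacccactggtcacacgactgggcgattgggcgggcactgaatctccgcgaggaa

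Men1 was slightly higher in insulin-led than in glucagon-led cells, at 15.4 CPM in glucagon-led and 20.2 CPM in insulin-led cells labelled SpopβKO, a log2 ratio of −0.39 (−0.67 to −0.12). In the Spop fl/fl library these levels were 17.6 and 19.9 CPM, and their log2 ratio was −0.17 (−0.36 to 0.01), an interval that included 0. Over the hormone classes with at least 50 cells, 8 of the 9 genes had their highest level in the same class in both libraries. Ccnd1, Ccnd2, Cdk6, Cdkn1b and Cdkn2c were highest in glucagon-led cells, Cdkn2a and Men1 in insulin-led cells, and Ccnd3 in pancreatic polypeptide-led cells. The share of all genes with the same highest class was not counted, and with thinned cells the count was 4. Some intervals overlapped. In the library labelled SpopβKO Cdkn1b was at 112 CPM (105 to 120) in glucagon-led and 109 CPM (93.4 to 126) in pancreatic polypeptide-led cells. Ccnd3 was at 22.4 CPM (19.2 to 25.9) and 24.6 CPM (17.6 to 33.5) there.

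Across the 7 class sums with at least 50 cells in a library, the genes most like Ccnd1 in log2(CPM + 1) among 5386 genes were the protease gene Ctsl, the dUTPase gene Dut and Lsm10, a part of the histone mRNA processing machinery, with Pearson r = 0.965, 0.963 and 0.959. Those most like Ccnd2 were Tprkb, Msl2 and the chloride-proton exchanger gene Clcn3 (r = 0.999, 0.998 and 0.994), and those most like Ccnd3 were Kcnj11, the pore of the ATP-sensitive potassium channel, Hspbp1 and Erap1 (r = 0.999, 0.997 and 0.995). These correlations describe only 7 points that share 2 libraries, and the macrophage-marker class alone lies far from the rest for Ccnd2 and Ccnd3.

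Between the libraries, Ccnd1, Ccnd2 and Cdk4 were lower in insulin-led cells labelled SpopβKO by more than counting error, each by less than 1.5-fold, and Cdkn2a was 2.24-fold higher at a level near 1 CPM. For this comparison UMIs were summed over the class and scaled to CPM with TMM factors. A gene was called where its mean over the libraries was at least 10 CPM and its ratio at least 1.5-fold in either direction. Of the 9 genes, 6 reached 10 CPM and 0 were called, beside 9.88% of all 8393 genes over that minimum (6.52% higher and 3.36% lower). The median log2 ratio of those 6 was −0.20, beside −0.05 over all genes. Summed markers of other cell types in cells labelled SpopβKO and in Spop fl/fl cells were 1139 and 474 CPM for pancreatic polypeptide cells, 386 and 234 CPM for ductal, 32.6 and 3.91 CPM for acinar, 12.0 and 3.6 CPM for macrophage, 6.88 and 4.37 CPM for endothelial and 3.25 and 0.505 CPM for mesenchymal markers. Those of delta cells were 225 and 176 CPM, of alpha cells 329 and 339 CPM, of glia 13.2 and 11.7 CPM, and of T and B cells 5.92 and 19.4 CPM. Their part in the ratios was not tested.

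Ccnd1 stood at 45.7 CPM (3173 UMIs) in insulin-led cells labelled SpopβKO and at 55.4 CPM (2550 UMIs) in Spop fl/fl ones, a log2 ratio of −0.28 (−0.35 to −0.20). Ccnd2 reached 769 CPM (53381 UMIs) in cells labelled SpopβKO and 919 CPM (42252 UMIs) in Spop fl/fl cells, for a log2 ratio of −0.26 (−0.27 to −0.24). Cdk4 reached 109 CPM (7553 UMIs) in cells labelled SpopβKO and 138 CPM (6326 UMIs) in Spop fl/fl cells, for a log2 ratio of −0.34 (−0.39 to −0.29). The 3 differences were of like size, near 1.2-fold, and below the fold that was called. Ccnd3 was at 20.4 CPM in cells labelled SpopβKO and 19.4 CPM in Spop fl/fl cells, and its log2 ratio of 0.07 (−0.05 to 0.20) was within counting error.

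The inhibitors did not move together. Cdkn1b stood at 80.6 CPM (5590 UMIs) in insulin-led cells labelled SpopβKO and 88.8 CPM (4084 UMIs) in Spop fl/fl ones, a log2 ratio of −0.14 (−0.20 to −0.08). Cdkn2a stood at 1.56 CPM (108 UMIs) and 0.696 CPM (32 UMIs), a log2 ratio of 1.16 (0.58 to 1.78), below the 10 CPM at which a gene was called. With each cell thinned to 5000 UMIs, 0.696% (0.473 to 0.986) of insulin-led cells labelled SpopβKO and 0.363% (0.174 to 0.667) of Spop fl/fl ones had a Cdkn2a UMI, and without thinning 1.51% and 0.801%. Those thinned shares were 0.142% and 0.0687% in glucagon-led cells, 1 cell in each library. The log2 ratios of Cdkn2c, at 6.28 CPM in cells labelled SpopβKO and 5.48 CPM in Spop fl/fl cells, and of Men1, at 20.4 and 19.7 CPM, were 0.20 (−0.03 to 0.43) and 0.05 (−0.07 to 0.17). Cdk6, at 0.26 and 0.33 CPM, had too few UMIs to show a difference (log2 ratio −0.33, −1.40 to 0.76).

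In glucagon-led cells, which keep Spop by design, Ccnd1 was again lower in the library labelled SpopβKO. It stood at 81.3 CPM (650 UMIs) in cells labelled SpopβKO and 97.5 CPM (1737 UMIs) in Spop fl/fl cells, a log2 ratio of −0.26 (−0.39 to −0.13), close to that of insulin-led cells. Ccnd2, at 996 and 1021 CPM, had a log2 ratio of −0.04 (−0.07 to 0.00), and Cdk4, at 111 and 103 CPM, one of 0.11 (−0.01 to 0.22). Whether these differ from the ratios of insulin-led cells was not tested, since there is 1 library per genotype. The log2 ratios of Ccnd3, Cdkn1b, Cdkn2c and Men1 were 0.00, −0.04, 0.01 and −0.18, each with an interval that included 0. Of the 9 genes, 7 reached 10 CPM and 0 were called, beside 1.47% of all 8592 genes (0.745% higher and 0.722% lower).

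In the 106 and 115 pancreatic polypeptide-led cells, 0 of the 6 genes over 10 CPM were called, beside 8.2% of 8231 genes (3.68% higher and 4.52% lower). Ccnd2 was at 680 CPM in cells labelled SpopβKO and 749 CPM in Spop fl/fl cells, a log2 ratio of −0.14 (−0.25 to −0.03). Cdkn1b went the other way from insulin-led cells, at 107 CPM (177 UMIs) in cells labelled SpopβKO and 77.5 CPM (206 UMIs) in Spop fl/fl cells, a log2 ratio of 0.46 (0.16 to 0.76). The median depth of this class was 12100.5 UMIs in the library labelled SpopβKO and 19000 UMIs in the Spop fl/fl library. The part of depth in these ratios was not tested.

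**Figure D2:**
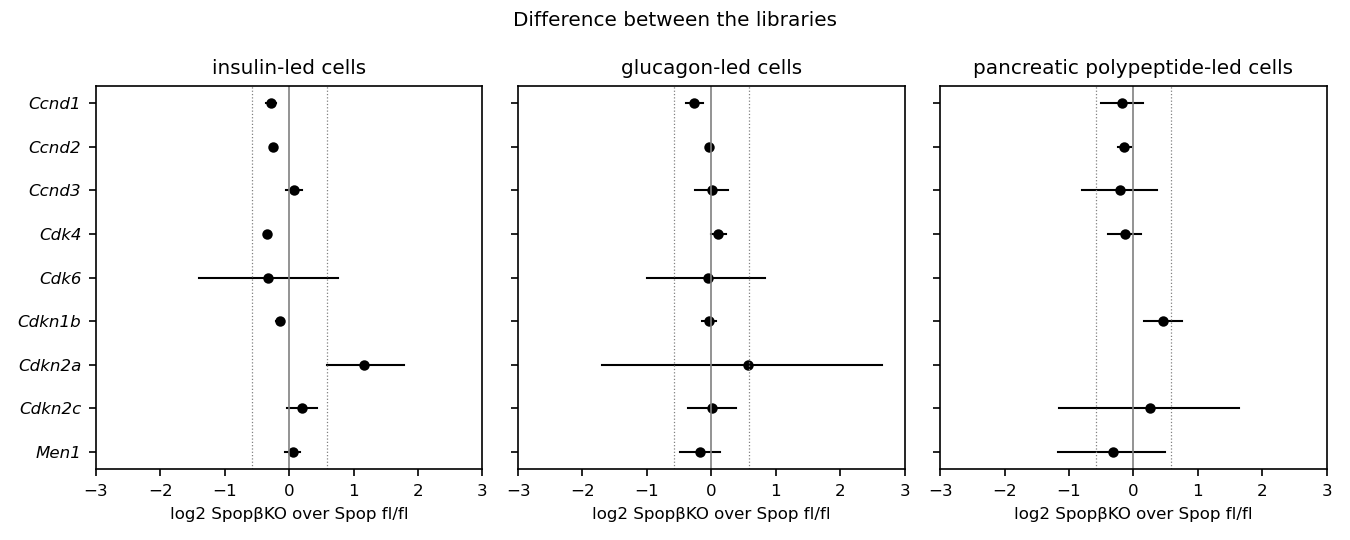
Log2 ratio of the library labelled SpopβKO over Spop fl/fl for each gene (points, with 95% intervals for counting error) in insulin-, glucagon- and pancreatic polypeptide-led cells. Dotted lines mark 1.5-fold, and genes with no UMI in a library have no point. Ccnd1, Ccnd2 and Cdk4 lie below 0 in insulin-led cells at −0.28, −0.26 and −0.34, and Cdkn2a lies at 1.16 with a wide interval.

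The mixture of insulin-led cells differed between the libraries, so the comparison was repeated within tertiles (equal parts by number) of the pooled cells, taken by insulin share, by total UMIs and by the summed UMI share of the stress genes Ddit3, Atf3, Trib3, Hspa1a and Hspa1b. Ddit3 made up most of the stress share, at 900 CPM in insulin-led cells labelled SpopβKO and 1403 CPM in Spop fl/fl ones. Trib3, the next, was at 82.4 and 133 CPM, so the stress tertiles rank cells mainly by Ddit3. Ccnd1 and Ccnd2 were lower in cells labelled SpopβKO in all 9 tertiles. For Ccnd1 the log2 ratio ran from −0.78 (−1.10 to −0.45) in the cells with fewest UMIs to −0.09 (−0.24 to 0.05) in those with most insulin. In the lowest stress tertile Ccnd1 was at 53.5 CPM in cells labelled SpopβKO and 84.3 CPM in Spop fl/fl cells, a log2 ratio of −0.66 (−0.81 to −0.51). This is past 1.5-fold, as in the middle stress tertile and the shallowest cells. The share of all genes past that fold within a tertile was not counted. For Ccnd2 the log2 ratio ran from −0.44 (−0.48 to −0.39) in the lowest stress tertile to −0.17 (−0.20 to −0.13) in the highest insulin tertile.

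The ratios of Cdk4, Cdkn1b and Men1 varied with the cells compared. The log2 ratio of Cdk4 was −0.51 (−0.60 to −0.42) in the highest insulin tertile, but −0.08 (−0.23 to 0.07), −0.07 (−0.15 to 0.02) and −0.24 (−0.31 to −0.16) in the lowest, middle and highest stress tertiles, and 0.10 (−0.14 to 0.34) in the lowest tertile of total UMIs. That of Cdkn1b was −0.70 (−0.82 to −0.57) in the lowest and 0.01 (−0.08 to 0.11) in the highest stress tertile. It was −0.52 (−0.63 to −0.42) in the highest insulin tertile and 0.02 (−0.08 to 0.13) in the lowest. Its −0.70, and the −0.68 (−0.85 to −0.52) of the shallowest cells, are past 1.5-fold, again without a count over all genes. Men1 had log2 ratios of 0.52 (0.27 to 0.78) in the highest and −0.15 (−0.37 to 0.06) in the lowest insulin tertile, and of −0.21 (−0.41 to −0.01) in the highest and 0.32 (0.01 to 0.65) in the lowest stress tertile. In the shallowest cells Cdkn1b was at 138 CPM in those labelled SpopβKO and 222 CPM in Spop fl/fl ones, above the 80.6 and 88.8 CPM of all insulin-led cells.

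**Figure D3:**
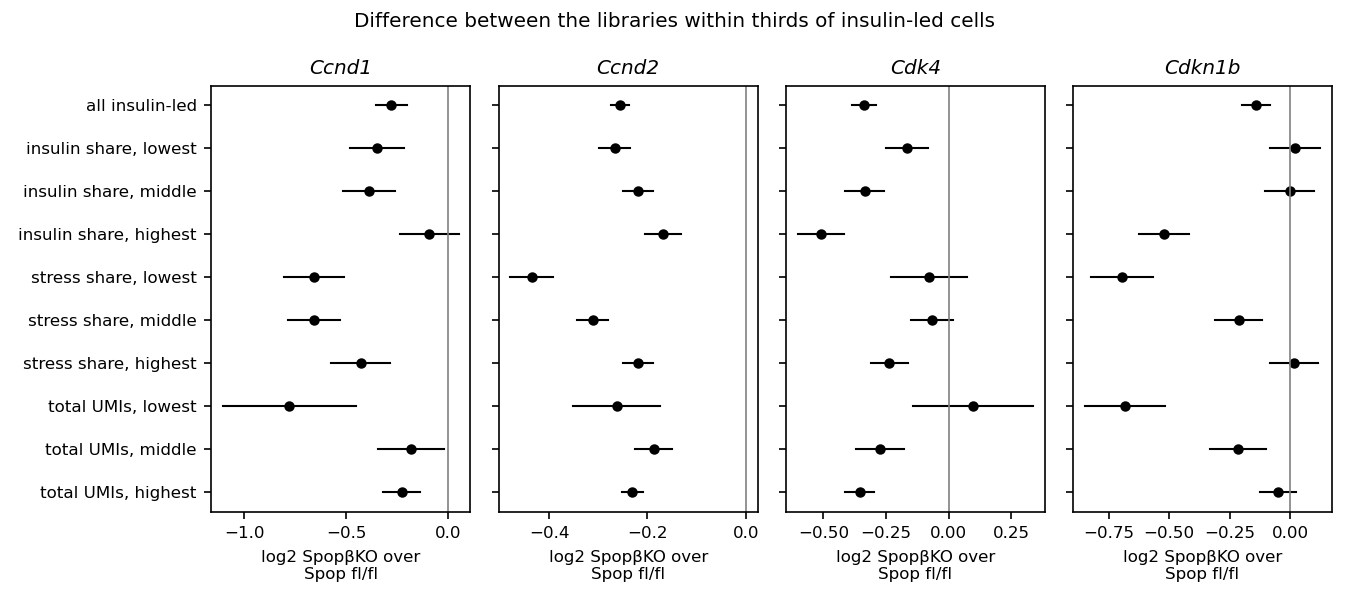
Log2 ratio of the library labelled SpopβKO over Spop fl/fl (points, with 95% intervals) for Ccnd1, Ccnd2, Cdk4 and Cdkn1b in all insulin-led cells and in tertiles of them by insulin share, stress-gene share and total UMIs. Ccnd1 and Ccnd2 stay below 0 in each tertile, while Cdk4 reaches 0.10 and Cdkn1b 0.02.

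Within each library, the cells that carried more stress-gene RNA, which was mostly Ddit3, had less Ccnd1 and more Cdk4. These levels are CPM with hormone genes left out of the totals. Ccnd1 in the lowest, middle and highest stress tertiles was at 73.4, 48.1 and 38.8 CPM in cells labelled SpopβKO and at 114, 75.2 and 50.1 CPM in Spop fl/fl cells. Its log2 ratio of the highest over the lowest tertile was −0.92 (−1.06 to −0.78) in the library labelled SpopβKO and −1.18 (−1.34 to −1.02) in the Spop fl/fl library. Cdk4 ran the opposite way, at 97.1, 144 and 161 CPM in cells labelled SpopβKO and 101, 149 and 182 CPM in Spop fl/fl cells, with log2 ratios of 0.73 (0.65 to 0.82) and 0.86 (0.71 to 1.00). Ratios past 1.5-fold were common in that comparison. Of all genes, 19.6% were at least 1.5-fold higher and 15.5% lower in the library labelled SpopβKO, and 21.8% higher and 13.7% lower in the Spop fl/fl library. The shares past the larger folds of Ccnd1 and Cdk4 were not counted.

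Other properties moved with the stress share. In the lowest and highest tertiles the median mitochondrial share was 3.43% and 1.02% in cells labelled SpopβKO and 2.62% and 0.910% in Spop fl/fl cells, and the median depth was 7742 and 7952 UMIs and 3404 and 10401 UMIs. Among the insulin-led cells in the top tertile of total UMIs only, a restriction added after seeing the data, the medians were 18212.5 and 17740 UMIs in cells labelled SpopβKO and 18307.5 and 18638.5 UMIs in Spop fl/fl cells. There the log2 ratio of the highest over the lowest stress tertile was −0.95 (−1.13 to −0.77) and −1.35 (−1.54 to −1.17) for Ccnd1 and 0.65 (0.55 to 0.76) and 0.84 (0.66 to 1.01) for Cdk4, where 20.4% of genes were 1.5-fold higher and 14.9% lower in the library labelled SpopβKO and 24.8% higher and 15.1% lower in the Spop fl/fl library. In the lowest and highest stress tertiles of these deep cells the median insulin share was 23.1% and 8.38% in cells labelled SpopβKO and 21.5% and 7.37% in Spop fl/fl cells, and the median mitochondrial share was 4.0% and 1.21%, and 4.83% and 1.09%. The part of these shares in the relation was not tested. In those deep cells Ccnd2 fell by 0.45 on the log2 scale in the Spop fl/fl library, against a fall of 0.06 in the library labelled SpopβKO, at 997, 965 and 958 CPM in cells labelled SpopβKO and 1457, 1187 and 1066 CPM in Spop fl/fl cells over the lowest, middle and highest stress tertiles. Cdkn1b was at 84.2, 92.7 and 90.2 CPM in cells labelled SpopβKO and 113, 100 and 82.4 CPM in Spop fl/fl cells.

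**Figure D4:**
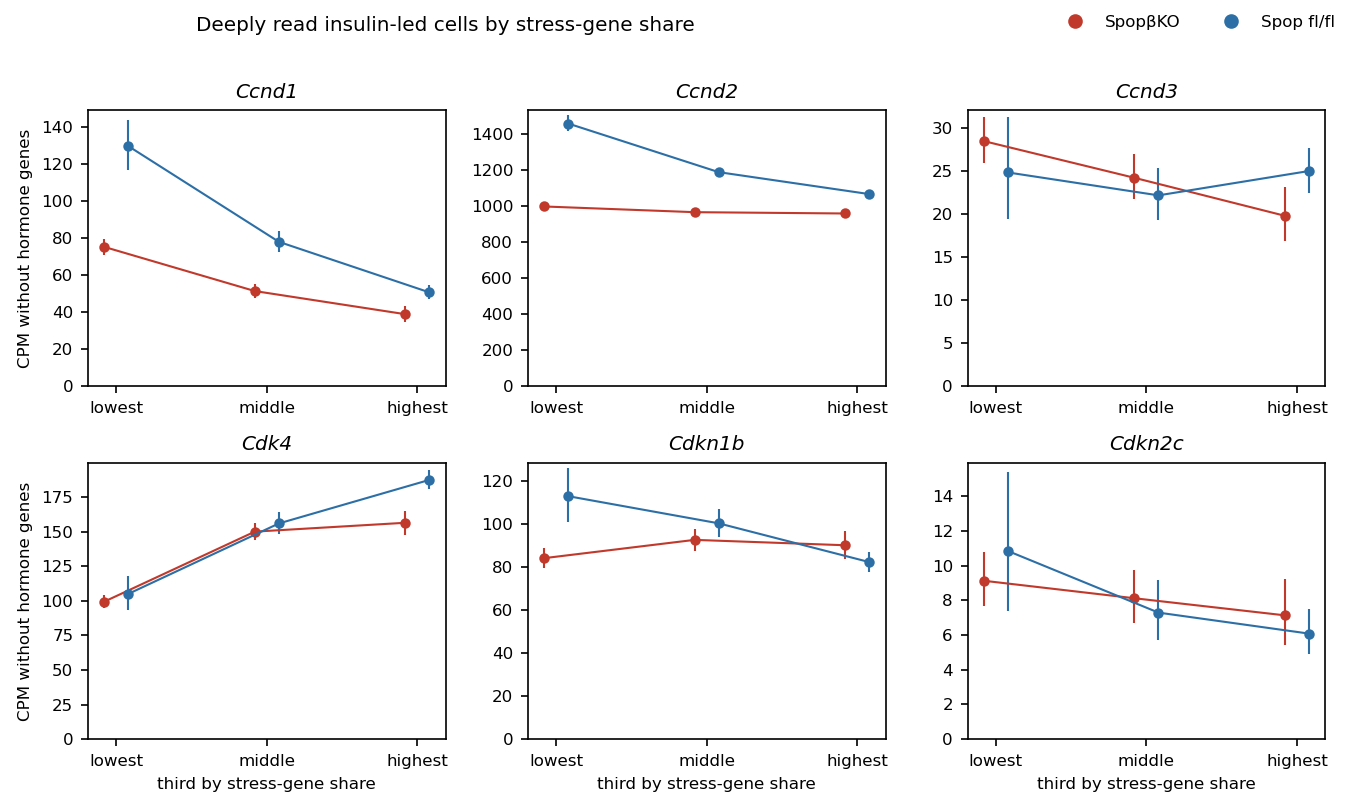
Levels of 6 of the genes (CPM without hormone genes, 95% Poisson intervals) in the insulin-led cells in the top tertile of total UMIs, split into tertiles by the UMI share of the stress genes, with the library labelled SpopβKO in red and left and Spop fl/fl in blue and right. Ccnd1 falls and Cdk4 climbs from left to right in both libraries, and Ccnd2 lies between 958 and 997 CPM in cells labelled SpopβKO but between 1066 and 1457 CPM in Spop fl/fl cells.

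Few insulin-led cells carried Mki67 or Top2a, a nuclear proliferation antigen and a topoisomerase of dividing cells. They numbered 140 of 7002 (interval 1.68% to 2.36%) in the library labelled SpopβKO and 108 of 3871 (2.79%, 2.29 to 3.36) in the Spop fl/fl library. With each cell thinned to 5000 UMIs, which left out 2547 and 1117 shallower cells, the shares were 0.875% (0.623 to 1.19) and 1.23% (0.856 to 1.72). In glucagon-led cells the thinned shares were 1.70% (0.883 to 2.95) and 1.72% (1.11 to 2.53), so the insulin-led shares were not above those of glucagon-led cells. Of the positive insulin-led cells 123 and 98 had exactly 1 UMI of the pair.

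Cells with exactly 1 such UMI carried mitosis RNA at about the level of cells with none. The summed level of 20 mitosis genes in cells with exactly 1 UMI was 46.8 CPM, against 54.0 CPM in cells with none, in the library labelled SpopβKO (log2 ratio −0.21, −0.49 to 0.06), and 63.6 against 59.0 CPM in the Spop fl/fl library (0.11, −0.14 to 0.35). In the 17 cells labelled SpopβKO with at least 2 UMIs it was 585 CPM, a log2 ratio of 3.40 (3.19 to 3.61), while in the 10 such Spop fl/fl cells it was 64.5 CPM, a log2 ratio of 0.10 (−0.60 to 0.71). Of the 200 mitosis-gene UMIs of those 17 cells, 154 came from the 5 cells that carried both Mki67 and Top2a. No marker beyond the class gates was read in these cells. Hmgb2, a chromatin protein gene, made up most of the list's level, at 41.0 CPM over all insulin-led cells labelled SpopβKO and 41.7 CPM over Spop fl/fl ones. The median depth was 18438.5 UMIs in positive and 7583.5 in negative cells labelled SpopβKO, and 20715 and 8606 UMIs in Spop fl/fl cells.

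For cells with Mki67 or Top2a, genes were counted only with a mean of at least 10 CPM in each library. The D cyclins, Cdk4, Cdkn1b and Men1 reached it, and Cdk6, Cdkn2a and Cdkn2c did not. Of those that did, 0 were past 1.5-fold in the same direction in both libraries, beside 0.0614% of 8141 genes higher and 0.577% lower. At such low shares a count of 0 does not set these genes apart. In the library labelled SpopβKO alone 2.31% of genes were past that fold (0.562% higher and 1.74% lower), and in the Spop fl/fl library 4.02% (1.16% higher and 2.87% lower). Ccnd2 stood at 810 CPM in positive and 792 CPM in negative insulin-led cells labelled SpopβKO, a log2 ratio of 0.03 (−0.03 to 0.09), and at 974 and 984 CPM in Spop fl/fl cells, a log2 ratio of −0.01 (−0.07 to 0.04). Cdk4 had log2 ratios of 0.00 (−0.17 to 0.16) and −0.01 (−0.16 to 0.14), and Ccnd1 of −0.17 (−0.44 to 0.10) and 0.11 (−0.12 to 0.34). Cdkn1b was at 83.7 and 83.0 CPM in cells labelled SpopβKO, a log2 ratio of 0.01 (−0.18 to 0.20), and at 82.5 and 95.9 CPM in Spop fl/fl cells, a log2 ratio of −0.22 (−0.42 to −0.02). Against negative cells of the same depth its ratio was 0.04 (−0.17 to 0.25) in the Spop fl/fl library, and 0.14 (−0.06 to 0.34) in the library labelled SpopβKO.

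At matched depth Ccnd1 was at 42.0 CPM in positive and 51.2 CPM in negative cells labelled SpopβKO, a log2 ratio of −0.29 (−0.57 to −0.01), and at 64.4 and 60.6 CPM in Spop fl/fl cells, a log2 ratio of 0.09 (−0.16 to 0.33). The Ccnd2 ratio at matched depth was −0.06 (−0.12 to 0.00) in the library labelled SpopβKO and −0.07 (−0.13 to −0.01) in the Spop fl/fl library. In glucagon-led cells, with 22 and 49 positive cells, the log2 ratios of Ccnd1, Ccnd2 and Cdk4 were −0.07, −0.03 and −0.36 in the library labelled SpopβKO and 0.01, 0.02 and −0.33 in the Spop fl/fl library, each with an interval that included 0.

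**Figure D5:**
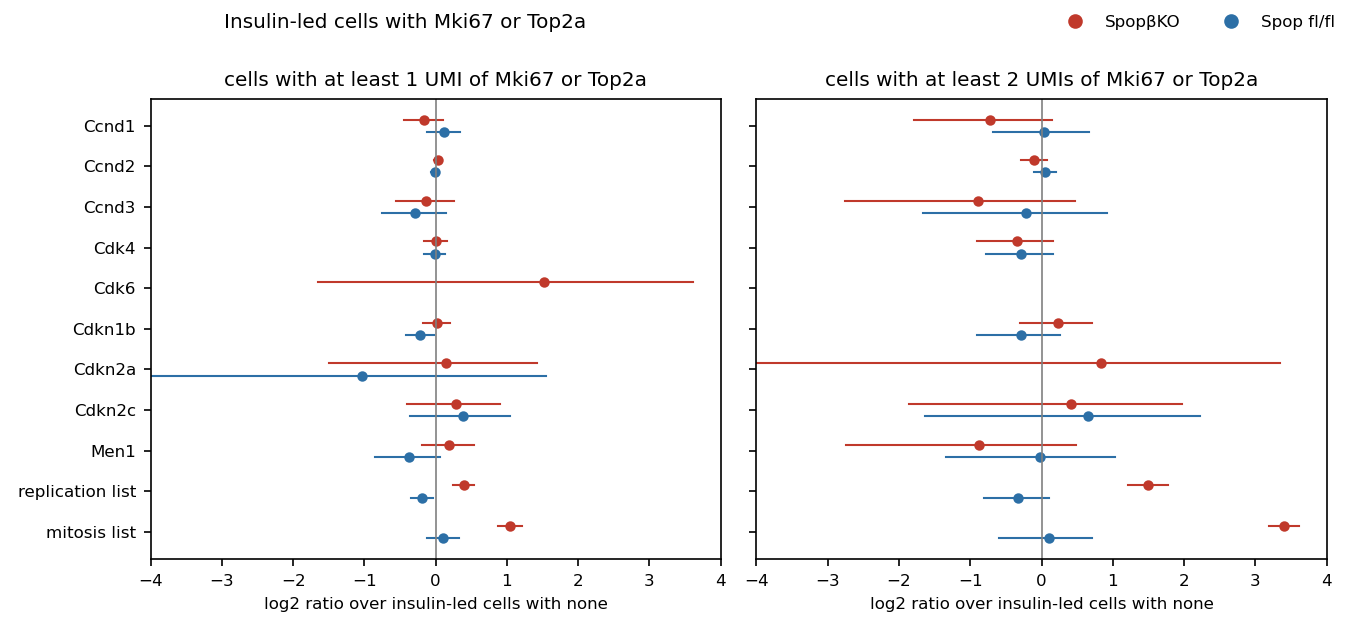
Log2 ratio (95% intervals) of insulin-led cells with at least 1 (left) or at least 2 UMIs (right) of Mki67 or Top2a over insulin-led cells with none, for the 9 genes and the summed DNA replication and mitosis genes, with the library labelled SpopβKO in red and above and Spop fl/fl in blue and below. Intervals are drawn to the axis limits, and genes with no UMI in the positive cells have no point. The mitosis genes reach 3.40 in the 17 cells labelled SpopβKO with at least 2 UMIs, and Ccnd2 lies between −0.10 and 0.05 in both panels, while genes with few UMIs scatter with wide intervals (Ccnd3 at −0.89 and Men1 at −0.87 in those 17 cells, on 4 UMIs each).

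Cells that carried at least 5 of the 20 mitosis genes, a stricter choice added after seeing the data, were rare. They numbered 4 insulin-led, 3 mesenchymal-marker, 3 macrophage-marker cells and 1 cell with no clear lead in the library labelled SpopβKO, and 1 glucagon-led cell in the Spop fl/fl library. In the 4 insulin-led cells Ccnd2 gave 21 UMIs, or 414 CPM, against 762 CPM in the other insulin-led cells of that library, a log2 ratio of −0.88 (−1.57 to −0.27), and Ccnd1 gave none. Cdkn1b gave 11 UMIs, or 217 CPM, against 79.7 CPM, a log2 ratio of 1.44 (0.44 to 2.28). In the 3 macrophage-marker cells Ccnd1 gave 10 UMIs, or 153 CPM against 45.5 CPM in the others, and Cdkn2c 3 UMIs, or 45.9 against 3.79 CPM. With so few cells these values describe those cells only. No marker beyond the class gates was read in the 4 insulin-led cells, so their cell type rests on the insulin gate. In the library labelled SpopβKO the median insulin share of macrophage-marker cells was 1.10%, near the 1% of that gate.

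The genes around the switch were read from lists of its known partners, in insulin-led cells and with the 9.88% of all genes called as background. Of 4 other kinase inhibitors 3 reached 10 CPM and 1 was called. That was Cdkn1a (p21), at 209 CPM in cells labelled SpopβKO and 390 CPM in Spop fl/fl cells, a log2 ratio of −0.90 (−0.93 to −0.87), and in glucagon-led cells its log2 ratio was −0.05. The INK4 genes Cdkn2d (p19INK4d) and Cdkn2b (p15) had log2 ratios of 0.52 (0.37 to 0.67) and 0.30 (0.14 to 0.45). Of 3 retinoblastoma family genes 2 reached 10 CPM and 0 were called. Rbl2 (p130) was at 19.6 and 13.8 CPM, a log2 ratio of 0.51 (0.37 to 0.64), and Rb1 at 21.4 and 24.2 CPM, a log2 ratio of −0.18 (−0.29 to −0.07). Of 10 E2F factors and partners 5 reached 10 CPM and 1 was called, the E2F partner gene Tfdp2 at 32.2 and 19.2 CPM, a log2 ratio of 0.75 (0.63 to 0.86). E2f4 and Tfdp1 had log2 ratios of −0.42 and −0.34. Of 9 later cyclins and kinases 2 reached 10 CPM and 0 were called, with Cdk7 at −0.12, and of the 20 mitosis genes 1 reached 10 CPM and 0 were called.

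Of 10 genes for the turnover of D cyclins and p27, 7 reached 10 CPM, 3 were higher and 4 lower, and 1 was called. That was Cks1b, a cofactor in the destruction of p27, at 14.6 CPM in cells labelled SpopβKO and 9.11 CPM in Spop fl/fl cells, a log2 ratio of 0.68 (0.52 to 0.85). Fbxw8 and Ambra1, parts of ubiquitin ligases reported to act on D cyclins, had log2 ratios of −0.37 and −0.22. All 13 partners of menin and polycomb genes reached 10 CPM and 0 were called. The lowest were Wdr5, Rnf2 and Bmi1, at −0.57, −0.39 and −0.34.

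Of 16 inputs to D-cyclin transcription, 10 reached 10 CPM and 2 were called, in opposite directions. Prlr, the prolactin receptor whose signal raises D-cyclin genes in beta cells of pregnancy, was at 346 CPM in cells labelled SpopβKO and 90.4 CPM in Spop fl/fl cells, a log2 ratio of 1.94 (1.89 to 1.98). Prlr was also higher in glucagon-led cells labelled SpopβKO (log2 ratio 1.35, 1.07 to 1.64), the class that carried more insulin RNA in that library, and the part of that RNA was not tested. Myc was at 14.8 and 31.2 CPM, a log2 ratio of −1.08 (−1.19 to −0.96), and at −0.56 (−0.80 to −0.32) in glucagon-led cells. Irs2, an adaptor of the insulin receptor, had a log2 ratio of −0.52 (−0.58 to −0.47). Of 16 DNA replication genes 4 reached 10 CPM, all 4 were lower and 1 was called, Pcna, the sliding clamp of DNA polymerase, at 40.8 and 72.9 CPM (log2 ratio −0.84, −0.91 to −0.77). Rrm1 and Mcm7 had log2 ratios of −0.44 and −0.28. All 5 stress genes were called lower, Hspa1a most, at 11.4 CPM in cells labelled SpopβKO and 46.9 CPM in Spop fl/fl cells. Hspa1b and Atf3 had log2 ratios of −1.85 and −1.12.

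In insulin-led cells with Mki67 or Top2a over those without, the partners that differed most in one direction in both libraries were Irs2 (mean log2 ratio −0.78), Cks1b (0.63), Foxo3 (−0.46), the polycomb gene Ring1 (−0.35), Kmt2a (−0.27), and the stress genes Ddit3 (−0.35) and Atf3 (−0.32). These ratios were not matched for depth, and the positive cells were the more deeply read in both libraries. Most positive cells had exactly 1 such UMI, so the ratios do not describe dividing cells.

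Each of the 9 genes lay at its annotated place on GRCm38, matched by identifier, and is protein-coding. Ccnd1 (ENSMUSG00000070348) lies on chromosome 7 from 144929931 to 144939925, minus strand, Ccnd2 (ENSMUSG00000000184) on chromosome 6 from 127125162 to 127152193, minus strand, and Ccnd3 (ENSMUSG00000034165) on chromosome 17 from 47505051 to 47599691, plus strand. Cdk4 (ENSMUSG00000006728) lies on chromosome 10 from 127063534 to 127067920, plus strand, and Cdkn1b (ENSMUSG00000003031) on chromosome 6 from 134920401 to 134925513, plus strand. Cdk6 (ENSMUSG00000040274) lies on chromosome 5 from 3341485 to 3531008, plus strand, Cdkn2c (ENSMUSG00000028551) on chromosome 4 from 109660876 to 109667189, minus strand, and Men1 (ENSMUSG00000024947) on chromosome 19 from 6334979 to 6340891, plus strand. The 5 genes Ccnd1, Ccnd2, Ccnd3, Cdk4 and Cdk6 overlap an annotated gene on the other strand, among them Bysl at Ccnd3 and Tspan31 at Cdk4, and whether the counting used strand is not given in the sources used here, so their counts are uncertain to that extent.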

How the data were processed

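The deposited tables hold raw UMI counts per gene and barcode, whose headers name Cell Ranger 6.0.0 (per the file headers); mm10, R 4.1.1 and Seurat 4.1.0 are named in the submitters' processing notes. Later steps, and the rule that called barcodes cells, are not given in the sources used here. No doublets were removed. Cells with UMIs of at least 3 of 6 mesenchymal, endothelial or macrophage markers were set aside, and the remaining cells were classed by leading hormone. UMIs were summed per class and library. Ratios have exact conditional Poisson intervals, and the TMM calculation was tested on simulated data. TMM factors in insulin-led cells were 0.990 for SpopβKO and 1.01 for Spop fl/fl, and unscaled CPM moved log2 ratios by −0.03. No test was made, since there is 1 library per genotype. Partner genes were named where a list's log2 ratio was among its 3 largest, with a mean level no lower than 10 CPM and an interval that left out 0, and likewise for cells with Mki67 or Top2a by the mean of both libraries' ratios. Genes like a D cyclin were taken from those with a mean of at least 25 CPM. The 9 genes and the lists were chosen with earlier results of these data known. Software was pandas 2.3.3, numpy 2.4.6, matplotlib 3.10.9 and scipy 1.17.1 under Python 3.11.15. Alternatives were other gates, filters, scalings, thinning and tertiles of cells.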

Additional observations from a re-analysis of the deposited data

Results flagged for a closer look

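The log2 ratio of Cdkn1b between the libraries was −0.14 in insulin-led cells and 0.46 in pancreatic polypeptide-led cells, so the library labelled SpopβKO was lower in one class and higher in the other. The difference between the classes was not tested, because each genotype has 1 library. Pancreatic polypeptide-led cells had a median of 12100.5 UMIs in the library labelled SpopβKO and 19000 UMIs in the Spop fl/fl library. In insulin-led cells Cdkn1b was at 138 CPM (SpopβKO) and 222 CPM (Spop fl/fl) in the lowest tertile of total UMIs. In the highest tertile it was at 74.6 and 77.3 CPM. The part of depth in the difference was not tested.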

How the results depend on the processing

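In insulin-led cells Ccnd1 (log2 ratio −0.78 to −0.09), Ccnd2 (−0.44 to −0.17) and Cdkn2a (0.50 to 1.63) kept their direction in each of the 18, 18 and 17 alternatives that gave a value. Cdk4 turned to 0.10 in the lowest tertile of total UMIs, and Cdkn1b to 0.022 in the lowest tertile of insulin share and 0.015 in the highest tertile of stress share. Men1 changed sign in 4 of 18 alternatives (−0.21 to 0.52), Ccnd3 in 2 of 18 (−0.16 to 0.22), Cdkn2c in 2 of 18 (−0.61 to 0.36) and Cdk6 in 3 of 17 (−1.62 to 0.88). The cause was not tested. The count of genes past 1.5-fold, 0 as reported, was 1 with no CPM minimum (Cdkn2a), 2 (Ccnd1 and Cdkn1b) in the lowest tertile of stress share, 1 (Ccnd1) in its middle tertile and 2 (Ccnd1 and Cdkn1b) in the lowest tertile of total UMIs. The share of all genes past that fold was not counted in these alternatives, so these counts have no background. In glucagon-led cells the count stayed at 0 in all 11 alternatives. With cells thinned to 5000 UMIs, 1 gene passed in cells with Mki67 or Top2a, again without a count over all genes. After thinning, 39 insulin-led cells labelled SpopβKO and 34 Spop fl/fl ones had a UMI of the pair. The count with the same highest class was 4 with thinned cells where 8 were reported, and its other alternatives gave 6 to 9. No paired analysis was possible because each genotype has 1 library. Cdk6 had at most 37 UMIs in any hormone class, which limits its ratios.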
